A study of Macaca fascicularis and Mus musculus with 492 samples.

Results

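Extraembryonic mesenchyme of embryonic days 13 and 14 (E13 and E14) was set against epiblast of the same days in single cells of cynomolgus monkey (Macaca fascicularis) embryos. RNA was measured by SC3-seq, a single-cell method that reads transcripts from their 3-prime ends, and each deposited sample is 1 cell. The extraembryonic mesenchyme side was the first 16 E13, 14 E14 and 2 E16 samples in accession order, 32 of the 492 samples of the series. The epiblast side was all E13 and E14 samples from a later title onward, 28 at E13 and 29 at E14, and 21 E13 and E14 cells belonged to neither side. The labels give the stage of each cell and embryo as its tissue, but neither a cell type nor which embryo a cell came from, and they name no treatment, so the sides rest on the place of a sample in the list and not on a label. If the submitters ordered the samples by a grouping made from expression, a test between the sides is not independent of that grouping. Per the labels' protocols, the implantation site was cut from the uterus, the piece holding epiblast, amnion, hypoblast and yolk sac endoderm was taken by hand, and trypsin was used to free single cells.

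Extraembryonic mesenchyme is the loose connective tissue that lines the trophoblast, the amnion and the yolk sac of the primate embryo, and later forms the core of the placental villi, the connecting stalk and the first blood vessels and blood. It lays down fibrillar collagens and other matrix that its cells move through, and in primates it is present before or around the start of gastrulation. The epiblast is the pluripotent epithelium that gives rise to the embryo proper. Mesenchymal cells in general lack the cadherin junctions and polarity of an epithelium and secrete growth factors to neighbouring epithelia.

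At E13 the mesenchyme cells were deeper than the epiblast cells at the median, and at E14 the medians were close. At E13 the extraembryonic mesenchyme cells held 481699 to 3116395 recovered reads (median 1673993) and the epiblast cells 293673 to 3035676 (median 725478). At E14 the extraembryonic mesenchyme cells held 1367125 to 3441443 (median 1991928) and the epiblast cells 444212 to 3666835 (median 2009417). Genes detected per cell ran from 8729 to 11783 in extraembryonic mesenchyme and from 8593 to 11837 in epiblast at these days. Titles also carry a code (MS followed by a number), which may mark a batch, though the labels do not say what it is. Of the 14 E14 mesenchyme cells, 12 carried MS09, a code with 1 E14 epiblast cell, so at E14 code and side can hardly be told apart. That epiblast cell goes against an epiblast label, as described below, and none of the other E14 epiblast cells carried MS09. Within a day and code, both sides had at least 2 cells in 4 pairs: at E13 MS10 (4 mesenchyme and 16 epiblast cells), MS13 (8 and 2) and MS61 (4 and 10), and at E14 MS13 (2 and 3). Of the 2 MS13 epiblast cells of E13, 1 goes against an epiblast label, as described below, and this holds for every difference given between the MS13 cells of E13.

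The sides were checked first, and the markers of the mesenchyme were high in its cells and near 0 in epiblast. COL3A1, the chain of type III collagen, had 1084 to 4314 RPM in E13 mesenchyme cells (median 3239), 3222 to 25945 at E14 (median 7730) and 18837 and 17936 in the 2 E16 cells, against 0 to 245 RPM in epiblast cells (median 0.769). COL6A3, a chain of type VI collagen, had 296 to 2753 RPM in the 30 E13 and E14 mesenchyme cells (median 987), against 0 to 2.14 RPM in the 57 epiblast cells. HGF, a growth factor that mesenchyme sends to epithelia, had 75.3 to 3715 RPM in mesenchyme cells (median 1501), against 0 to 39.5 RPM in epiblast cells. Every mesenchyme cell was above every epiblast cell for these 3 genes and for HAND2, a transcription factor of heart and limb mesoderm, with 48.7 to 727 RPM in mesenchyme cells and 0 to 8.03 RPM in epiblast cells. LUM (lumican) and DCN (decorin), small proteoglycans that bind collagen fibrils, overlapped between the sides. LUM had 0 to 1298 RPM in E13 mesenchyme cells (median 340) and 402 to 8439 at E14 (median 1876), against 0 to 141 RPM in epiblast cells (median 0). DCN had 0 to 368 RPM in E13 mesenchyme cells (median 7.01) and 3.6 to 3577 at E14 (median 1677), against 0 to 179 RPM in epiblast cells (median 0). DCN was thus low in most E13 cells and high in most E14 cells of the mesenchyme.

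**Figure D1:**
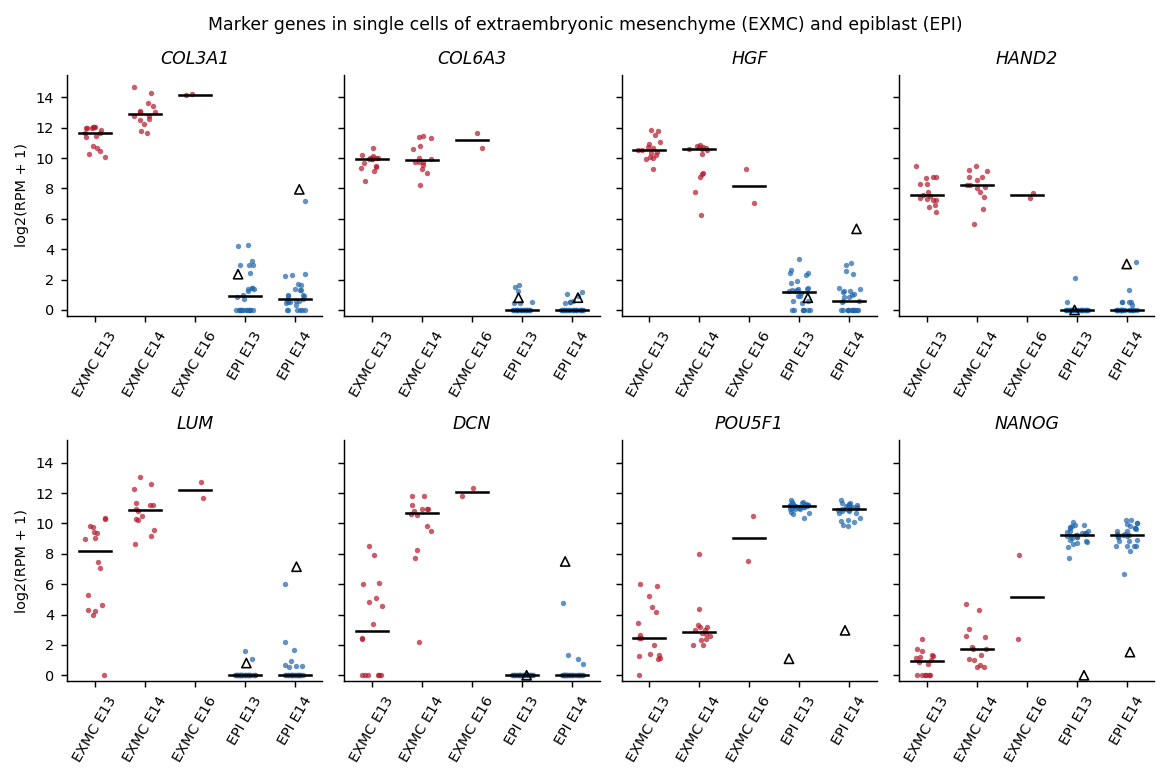
Levels of 8 marker genes in single cells, as log2(RPM + 1) on the vertical axis, for extraembryonic mesenchyme (EXMC) at E13, E14 and E16 and epiblast (EPI) at E13 and E14. Each point is 1 cell, bars are medians and open triangles are the 2 epiblast-side cells that stand apart from the consecutive run; COL3A1, COL6A3, HGF and HAND2 separate the sides cell by cell, and DCN is low in most E13 mesenchyme cells.

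The pluripotency markers ran the other way, with 2 exceptions on the epiblast side. POU5F1, the core pluripotency factor OCT4, had 0 to 258 RPM in mesenchyme cells (median 5.49), against 1.12 to 2988 RPM in epiblast cells (median 2111). NANOG, another core factor, had 0 to 25.2 RPM in mesenchyme cells (median 1.24), against 0 to 1181 RPM in epiblast cells (median 600). Without 2 cells the lowest POU5F1 value of an epiblast cell was 900 RPM. These 2 cells, 1 at E13 and 1 at E14, were picked by the rule but lie apart from the run of consecutive samples that holds the other 55. They had 1.12 and 6.77 RPM of POU5F1, 515 and 1281 of the mesendoderm factor GATA4, and 3900 and 3915 of fibronectin (FN1). Their summed endoderm markers ran from 286 to 1804 RPM, against at most 91 in the other 55, so they go against an epiblast label. They stay in every value below unless it is said that they were left out.

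Markers of other cell types were summed per cell as a check of both sides. Summed trophoblast markers were 32.4 to 3419 RPM in mesenchyme cells (median 202) and 17.1 to 612 RPM in epiblast cells (median 158). CYP19A1 was at 0 in every E13 and E14 mesenchyme cell, but also in 20 of the 21 cells of neither side, so its absence tells little. In mesenchyme cells CGA reached 476 RPM, GATA3 371, KRT18 2587 and KRT7 56.6, against 118, 202, 252 and 261 RPM in epiblast cells. Endoderm markers summed to 0 to 92.7 RPM in mesenchyme cells and 0 to 1804 RPM in epiblast cells. APOA2 was at 0 on both sides, also in the 2 cells that stand apart, so its absence tells little. Blood markers were at most 40.4 RPM in mesenchyme cells and 22.2 RPM in epiblast cells, with TAL1, SPI1 and PTPRC at 0 on both sides. The germ cell sum was 4.49 to 140 RPM in mesenchyme cells and 24.6 to 740 RPM in epiblast cells, and NANOS3 was at 0 on both. Because the tissue was cut from the uterus, markers of endometrial stroma were summed too, and stood at 147 to 2918 RPM in mesenchyme cells and 0 to 151 RPM in epiblast cells. Most of that sum was HOXA10, HOXA11 and MME. IGFBP1 reached 127 RPM in mesenchyme cells, with 6 of 30 at 10 RPM or more, against 0 in all 57 epiblast cells, while HOXD11 and PRL were at 0 in every E13 and E14 mesenchyme cell, PGR reached 7.27 RPM and ESR1 0.559 RPM. The sum of 8 amnion markers was 293 to 5142 RPM in mesenchyme cells and 3.49 to 231 RPM in epiblast cells, most of it IGFBP3. Endothelial markers summed to 126 to 766 RPM in mesenchyme cells and 2.12 to 183 RPM in epiblast cells, with CLDN5 at 0 in mesenchyme, where most of the sum was TEK. The part of these sums in the results below was not tested.

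To test the sides across genes, the mean of log2(RPM + 1) over the cells of a side and day was taken as 1 unit, which gave 2 units (E13 and E14) for each side. The log2 difference is the mesenchyme mean minus the epiblast mean of these units. It understates the change of genes near 0 on 1 side, and it is given with the moderated standard error of limma (SE, 2 days a side). Moderation draws the day spread of each gene toward a trend over all genes, so the SE is not the gene's own day spread. Of 9724 genes expressed highly enough to test, limma called 1194 higher in extraembryonic mesenchyme (12.3%) and 1231 lower (12.7%) at a Benjamini-Hochberg adjusted p under 0.05, 2425 in all. The p rests on this moderated spread between days and not on a spread between animals, since no embryo is named. All 2425 had the same sign on both days, and 2400 differed by at least 1. A gene that turned between the days could hardly be called by this test, so the shared sign is no separate result. The median difference of all tested genes was -0.14. Without the 2 cells that stand apart, 2551 genes were called, and each of the 142 tested genes named here stayed on its side of the threshold. Leaving out the E13 epiblast unit gave 1363 calls and leaving out the E14 epiblast unit 1452. With the day as a replicate block 3722 genes were called. That fit took the spread of each gene from a trend over all genes. Its residual and prior degrees of freedom were 9.72e+03, against 10.4 in the main fit. Calls with the block, here and below, thus do not rest on the day spread of each gene alone. To a lesser degree this also holds for the main fit. On recovered reads edgeR called 1702 genes, of which 1598 were also called by limma with the same sign.

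The difference was also taken on each day alone. At E13, 841 genes were higher in mesenchyme by at least 2 (8.65%) and 795 lower by at least 2 (8.18%). At E14 these numbers were 838 (8.62%) and 907 (9.33%). Both days shared 610 of the higher and 566 of the lower genes, and no gene passed 2 in opposite directions. For 39 genes every mesenchyme cell was above every epiblast cell (0.401% of those tested), and for 7 every one was below (0.072%). Within the 4 pairs of cells with the same day and title code, 936 of the 1194 higher genes (78.4%) and 994 of the 1231 lower genes (80.7%) had their sign in all 4, against 24.5% of the genes not called. The cells of these pairs also made the calls, so called genes would tend to keep their sign in them. The shares are therefore no independent check.

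**Figure D2:**
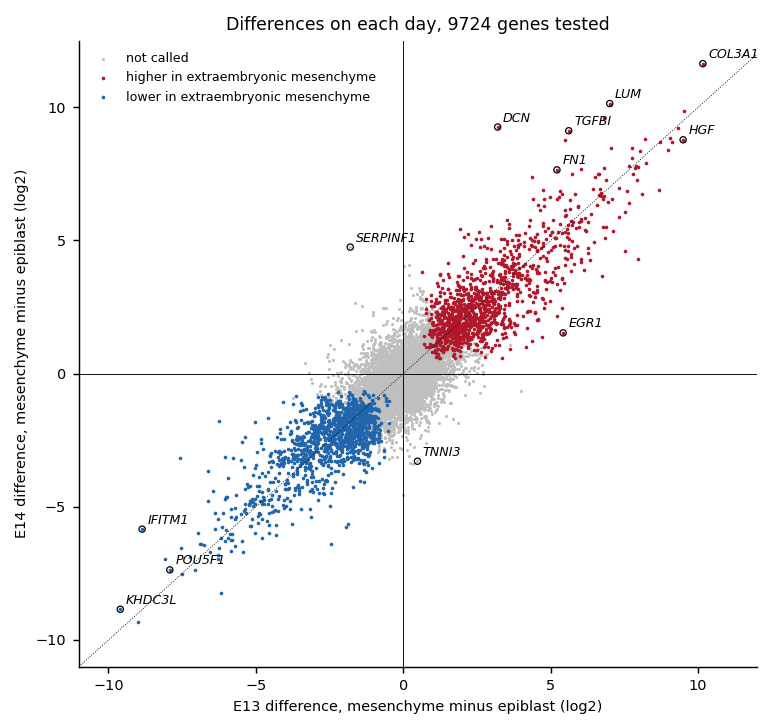
Difference between extraembryonic mesenchyme and epiblast at E13 (horizontal axis) and at E14 (vertical axis), in log2 of RPM + 1, for 9724 tested genes; red genes were called higher in mesenchyme, blue lower and grey not called, and the dotted line marks equal differences. Called genes lie in the quadrants of equal sign, which the test favours, while DCN and SERPINF1 sit far above the line and TNNI3 and EGR1 below it.

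The largest rises reported here were genes of matrix, of mesoderm transcription and of the cytoskeleton, and the growth factor HGF. All 6 mesenchyme markers passed the filter on low values only through mesenchyme, so they had to differ. COL3A1 was higher by 10.90 ± 0.48 (adjusted p = 7.2e-07), COL6A3 by 9.69 ± 0.44 (7.29e-07), HGF by 9.13 ± 0.44 (1.02e-06) and LUM by 8.57 ± 0.95 (0.000115). COL6A1, the partner chain of COL6A3, had 1478 to 4346 RPM in mesenchyme cells and 0 to 68.5 RPM in epiblast cells, a difference of 9.28 ± 0.38. VIM (vimentin), the intermediate filament of mesenchymal cells, had 1932 to 7351 RPM in mesenchyme cells and 0 to 355 RPM in epiblast cells (8.69 ± 0.33, adjusted p = 7.2e-07). CCDC80, a secreted matrix protein, differed by 8.96 ± 0.46, and HAPLN1, which links hyaluronan to proteoglycans, by 8.90 ± 0.42. HAND1, the paralog of HAND2, had 102 to 1648 RPM in mesenchyme cells and 0 to 26.4 RPM in epiblast cells (8.70 ± 0.44). EGFLAM (pikachurin), a matrix protein, differed by 8.51 ± 0.48 and POSTN (periostin) by 8.21 ± 0.84. None of the mesenchyme cells fell into the epiblast range for COL6A1, VIM, CCDC80, HAPLN1 or HAND1, and POSTN had 1 mesenchyme cell at 0. HAND2 rose by 7.74 ± 0.51 (adjusted p = 7.08e-06). DCN rose by 6.23 ± 1.54 (adjusted p = 0.0131), but it missed the threshold with edgeR (adjusted p = 0.0695) and with no filter on low genes (0.181), and it differed by 0.00 between the MS61 cells of E13.

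The tested collagen genes rose in mesenchyme with 2 exceptions. Of 22 collagens listed, 17 were tested, of which 15 were called higher and 2 lower, with a median of 5.87 beside -0.14 for all genes. Of the 17, 9 passed the filter on low values only through mesenchyme and 2 only through epiblast, so these had to differ. For 7 the cells did not overlap. Among those too low to be tested, COL12A1 reached 10 RPM or more in 2 of 30 mesenchyme cells, against 14 of 57 epiblast cells, and COL14A1 in 0, against 3. COL8A1 did so in 0 of 30, against 1 of 57, COL13A1 in 1, against 0, and COL15A1 in 4, against 0. The fibrillar chains that form type I and type V collagen rose beside COL3A1. COL1A2 had 218 to 6574 RPM in mesenchyme cells (median 1375), against 0 to 152 RPM in epiblast cells (median 37.7), and differed by 5.87 ± 0.55. COL1A1 had 504 to 4033 RPM in E13 mesenchyme cells (median 1862), 2634 to 9584 at E14 (median 4942) and 16395 and 9284 in the E16 cells, against 1.5 to 932 RPM in epiblast cells (median 136). That is a difference of 4.68 ± 0.48 (adjusted p = 7.38e-05), with an overlap of cells, so epiblast was low but not free of COL1A1. COL5A1 differed by 7.27 ± 0.45 and COL5A2 by 7.77 ± 0.54, with COL5A1 at 142 to 979 RPM in mesenchyme cells and 0 to 63.1 RPM in epiblast cells. COL4A1, the network collagen of basement membranes, had 691 to 3656 RPM in mesenchyme cells, against 0 to 228 RPM in epiblast cells (7.07 ± 0.39). The 2 collagens lower in mesenchyme were COL5A3, at 0 to 0.731 RPM in mesenchyme cells and 0 to 61.3 RPM in epiblast cells (-3.11 ± 0.39), and COL26A1 (-2.69 ± 0.51). COL1A1, COL1A2 and COL4A1 lie outside the rule for named genes and were chosen after their values were seen, as were FN1, EPCAM, KRT19, SPARC, SERPINH1, GATA4, GATA6, FOXF1, TBX20 and DLK1.

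Most enzymes and chaperones that fold, hydroxylate and cross-link collagen were higher in mesenchyme. Of 18 listed, 13 were tested, all of them through both sides, and 9 were called higher and none lower, with a median of 2.2. The collagen chaperone SERPINH1 (HSP47) had 886 to 4212 RPM in mesenchyme cells (median 2073), against 114 to 890 RPM in epiblast cells (median 482). PLOD2, a lysyl hydroxylase, had 33.8 to 816 RPM in mesenchyme cells (median 280), against 3.7 to 91.5 RPM in epiblast cells (median 23.2), a difference of 3.51 ± 0.36 (adjusted p = 7.25e-05). PCOLCE2, which enhances procollagen cleavage, differed by 3.92 ± 0.75, the cross-linking oxidase LOXL1 by 3.31 ± 0.44, the chaperone FKBP10 by 2.86 ± 0.52 and the prolyl hydroxylase P4HA2 by 2.81 ± 0.51. All of these overlapped between cells, and the epiblast expressed them at lower levels.

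Most of the tested glycoproteins and proteoglycans of the matrix followed the collagens. Of 27 listed, 18 were tested, 14 of them higher and 2 lower, with a median of 3.51, and 10 of the 18 passed only through mesenchyme. Other listed members were low. BGN, FMOD, ASPN, ELN and FBLN5 reached 10 RPM or more in 0 of 30 mesenchyme cells and OGN in 1, against 0 of 57 epiblast cells for each. FN1, the fibronectin that cells migrate on, had 708 to 7560 RPM in E13 mesenchyme cells (median 2721) and 3659 to 15102 at E14 (median 5944). In epiblast cells it had 1.49 to 704 RPM once the 2 cells that stand apart were left out. The difference was 6.43 ± 0.45 (adjusted p = 1.03e-05). FBN2 (fibrillin), a microfibril protein of developing tissue, had 104 to 574 RPM in mesenchyme cells (median 287), against 0 to 61.4 RPM in epiblast cells (median 0), a difference of 7.65 ± 0.50. TGFBI, an integrin-binding matrix protein, differed by 7.36 ± 0.98. SPARC, a collagen-binding glycoprotein, had 250 to 6327 RPM in mesenchyme cells and 0 to 565 RPM in epiblast cells. THBS2 (thrombospondin) was lower in mesenchyme, at 0 to 2.96 RPM against 0 to 198 RPM in epiblast cells (-4.47 ± 0.50), as was NREP (-2.13 ± 0.37).

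Laminins and nidogens, which build the sheet under epithelia, split between the sides. Of 11 listed, 9 were tested, with 6 higher and 3 lower in mesenchyme and a median of 4.58. NID2 had 136 to 3676 RPM in mesenchyme cells (median 584), against 0 to 74.9 RPM in epiblast cells (8.11 ± 0.61), without overlap. LAMA1 differed by 6.13 ± 0.50, NID1 by 5.44 ± 0.57, LAMB1 by 5.18 ± 0.42 and LAMA2 by 4.58 ± 0.50. LAMA5, the laminin chain of many epithelia, had 0 to 160 RPM in mesenchyme cells (median 8.61), against 4 to 346 RPM in epiblast cells (median 114), a difference of -3.72 ± 0.57 (adjusted p = 0.000852). Of the 3 lower members, 1 was still called lower without the E13 epiblast unit, and 1 with edgeR.

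Of the enzymes that remodel matrix and their inhibitors, 13 were in the table and 10 were tested, 7 of them higher and none lower, with a median of 4.48. Of the 10, 6 passed only through mesenchyme and so had to differ. PLAU (urokinase), a plasminogen activator, had 3.62 to 601 RPM in mesenchyme cells (median 193), against 0 to 54.3 RPM in epiblast cells (6.13 ± 0.52). ADAMTS1, a protease that cleaves proteoglycans, differed by 7.59 ± 0.53, ADAMTS9 by 5.97 ± 0.61 and PLAT, the other plasminogen activator, by 5.81 ± 0.78. TIMP1, an inhibitor of metalloproteases, had 99.6 to 777 RPM in mesenchyme cells and 0 to 63.8 RPM in epiblast cells (4.52 ± 0.43), with no overlap.

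**Figure D3:**
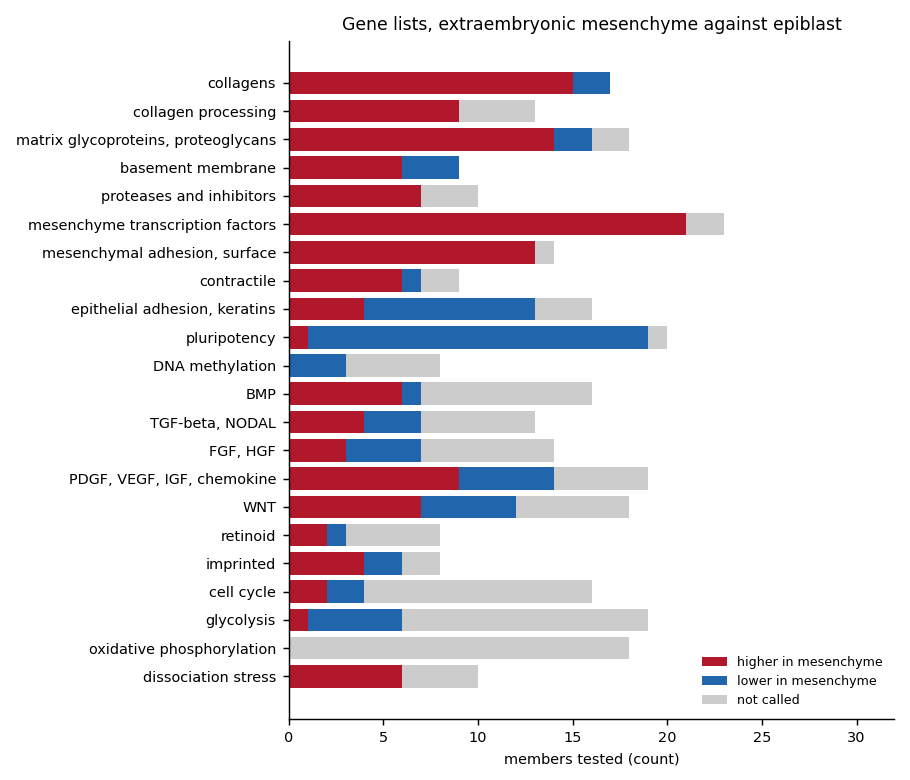
Number of tested members (horizontal axis) of 22 gene lists (rows) called higher in extraembryonic mesenchyme (red), lower (blue) or not called (grey) against epiblast. Collagens had 15 higher and 2 lower, mesenchyme transcription factors 21 higher, pluripotency genes 18 lower, and none of 18 oxidative phosphorylation genes was called.

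Most of the tested transcription factors of mesoderm and mesenchyme were higher on the mesenchyme side. Of 34 in the table, 23 were tested, 21 of them higher and none lower, with a median of 4.41. Of the 23, 18 passed only through mesenchyme and so had to differ, and 7 did not overlap between cells. Other listed factors were low: ZEB1 and PRRX1 each reached 10 RPM or more in 1 of 30 mesenchyme cells. TWIST2, FOXC1, FOXC2, MEF2C and MSX2 did so in 0 of 30. KLF4 (12 of 30, against 39 of 57) and BNC2 (3 of 30, against 18 of 57) had larger shares in epiblast cells. PITX1, a homeobox factor of hindlimb and first arch, had 69.8 to 895 RPM in mesenchyme cells (median 224), against 0 to 39.9 RPM in epiblast cells (7.04 ± 0.56). SNAI2, a repressor that drives the epithelial-to-mesenchymal transition, had 21.7 to 447 RPM in mesenchyme cells (median 171), against 0 to 12 RPM in epiblast cells (6.95 ± 0.55). FOXF1, a factor of lateral plate and extraembryonic mesoderm in the mouse, had 8.64 to 248 RPM in mesenchyme cells, against 0 to 2.19 RPM in epiblast cells (5.88 ± 0.58). TBX20, a T-box factor of the heart, differed by 6.68 ± 0.54, with every mesenchyme cell at 37.4 RPM or more and every epiblast cell at 36.9 or less. GATA4 and GATA6, which serve both mesoderm and endoderm, differed by 6.20 ± 0.50 and 6.81 ± 0.52. GATA4 had 65.9 to 777 RPM in mesenchyme cells, against 0 to 119 RPM in epiblast cells without the 2 that stand apart. The endoderm markers above were at or under 92.7 RPM in sum in the same mesenchyme cells.

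Genes of the primitive streak and nascent mesoderm were not expressed highly enough on either side to be tested, apart from 2 of the 16 listed. T (brachyury), the streak factor, had 0 to 2.97 RPM in mesenchyme cells (median 0) and 0 to 571 RPM in epiblast cells (median 0.504). MIXL1 had 0 to 19 RPM in mesenchyme cells and 0 to 378 RPM in epiblast cells, and EOMES 0 to 5.17 RPM in mesenchyme cells and 0 to 652 RPM in epiblast cells. On the epiblast side a few cells were high and most were at or near 0.

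Most of the tested epithelial genes were lower in mesenchyme, and the 3 keratins called in this list were higher. Of 21 epithelial genes, 16 were tested, 9 of them lower and 4 higher in mesenchyme, with a median of -3.47, and 7 passed only through epiblast. Some junction genes were expressed on both sides. DSG2, PKP2 and TJP1 reached 10 RPM or more in 30, 30 and 29 of 30 mesenchyme cells, against 57, 49 and 57 of 57 epiblast cells. ESRP1, the splicing regulator of epithelial isoforms, had 0 to 58.1 RPM in mesenchyme cells, against 76.5 to 408 RPM in epiblast cells (-6.59 ± 0.50), without overlap. LSR, a protein of tricellular junctions, had 0 to 26.7 RPM in mesenchyme cells, against 24.6 to 252 RPM in epiblast cells (-6.12 ± 0.52). CDH1 (E-cadherin) had 0 to 16.3 RPM in mesenchyme cells (median 0), against 0 to 263 RPM in epiblast cells (median 73.5), a difference of -5.47 ± 0.52. OCLN, a tight junction protein, differed by -6.02 ± 0.52, CDH3 (P-cadherin) by -5.87 ± 0.53 and EPCAM, a surface adhesion protein, by -4.82 ± 0.51. The 4 that rose were KRT8, KRT18 and KRT19, keratins of simple epithelia, and DSP (desmoplakin), which anchors keratins to desmosomes. KRT19 had 137 to 1360 RPM in mesenchyme cells (median 315), against 5.29 to 247 RPM in epiblast cells (median 60), a difference of 2.56 ± 0.32 (adjusted p = 0.00026). KRT8 differed by 2.17 ± 0.38 and KRT18 by 2.18 ± 0.44, but between the MS13 cells of E14 they stood at -0.72 and -1.06. DSP differed by 1.54 ± 0.40 and by -2.44 between those cells, and neither DSP (adjusted p = 0.106) nor KRT18 (adjusted p = 0.0544) was called without the E13 epiblast unit. With day and title code units DSP differed by 0.04 (adjusted p = 0.977), KRT8 by 1.53 (0.0862) and KRT18 by 1.32 (0.197), and none of the 3 was called.

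Most of the tested adhesion and surface genes typical of mesenchyme were higher. Of 18 listed, 14 were tested, 13 of them higher and none lower, with a median of 3.62, and 11 of the 14 passed through both sides. THY1 had a larger share in epiblast, with 10 RPM or more in 14 of 30 mesenchyme cells, against 40 of 57 epiblast cells. S100A4, NT5E, ENG and ITGA8 reached 10 RPM in 0, 1, 2 and 5 of 30 mesenchyme cells, against 0, 0, 1 and 1 of 57 epiblast cells. ITGA1, an integrin that binds collagen, had 23.6 to 492 RPM in mesenchyme cells (median 292), against 0 to 37.7 RPM in epiblast cells (7.14 ± 0.48). S100A11, a calcium-binding protein, had 176 to 661 RPM in mesenchyme cells (median 371), against 0 to 129 RPM in epiblast cells (5.71 ± 0.39), without overlap. ANXA1 (annexin), a membrane-binding protein, differed by 5.82 ± 0.52. CDH2 (N-cadherin) had 1.71 to 232 RPM in mesenchyme cells (median 132), against 0 to 65.1 RPM in epiblast cells without the 2 that stand apart, which had 594 and 1017 RPM. It differed by 4.22 ± 0.64 with limma (adjusted p = 0.000772), and edgeR, which weights cells by their reads, did not call it (adjusted p = 0.0549).

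Contractile genes were mixed. Of 11 in the table, 9 were tested, with 6 higher and 1 lower and a median of 2.06. TAGLN2, an actin-binding protein, differed by 5.41 ± 0.50, TPM1 (tropomyosin) by 5.07 ± 0.40, TAGLN by 4.16 ± 0.64 and the myosin light chain MYL9 by 2.87 ± 0.50. TAGLN was at -0.03 between the MS13 cells of E14. ACTG2, a smooth muscle actin, was lower, with 0 to 55.4 RPM in mesenchyme cells and 0 to 425 RPM in epiblast cells (-3.58 ± 0.53). ACTA2, the smooth muscle actin that marks myofibroblasts, was too low to be tested, with a median of 0 in mesenchyme cells and in epiblast cells.

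Most tested genes of pluripotency were lower in mesenchyme than in epiblast, and LIN28B was higher. Of 25 listed, 20 were tested, 18 of them lower and 1 higher, with a median of -5.12, and 10 passed only through epiblast. Lower did not always mean low. LIN28A and CD24 reached 10 RPM or more in 30 of 30 mesenchyme cells, SALL4 in 28, DPPA4 in 25 and ZFP42 in 22. NANOG did so in 2, SOX2 in 1 and PRDM14 in 0. POU5F1 differed by -7.64 ± 0.34 (adjusted p = 7.2e-07), NANOG by -7.51 ± 0.49, SOX2, their partner factor, by -6.62 ± 0.50 and PRDM14, a repressor that holds the pluripotent state, by -6.08 ± 0.53. The TGF-beta family ligand GDF3 differed by -5.66 ± 0.54, the RNA-binding protein L1TD1 by -5.87 ± 0.45 and DPPA4, a chromatin protein, by -3.49 ± 0.39. SALL4, a zinc finger factor that many progenitors also express, had 5.96 to 173 RPM in mesenchyme cells (median 68.2), against 98 to 551 RPM in epiblast cells (median 236), a difference of -2.02 ± 0.32. LIN28B, which blocks maturation of let-7 miRNAs, had 256 to 1320 RPM in mesenchyme cells (median 726), against 1.13 to 546 RPM in epiblast cells (median 216), a difference of 1.88 ± 0.26 (adjusted p = 0.000478). DPPA4 stood at 0.66 between the MS13 cells of E13. POU5F1 differed by -5.64 and was not called once the 2 E16 cells were added as a further unit, 1 of which had 1449 RPM of POU5F1.

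The 12 largest falls held POU5F1, NANOG and other genes of the early embryo and the pluripotent state. KHDC3L, a maternal-effect gene, had 0 to 66.6 RPM in mesenchyme cells (median 0.732), against 0 to 8411 RPM in epiblast cells (median 2179), a difference of -9.23 ± 0.46 (adjusted p = 1.32e-06). DPPA5, which binds RNA and marks pluripotent cells, had 0 to 139 RPM in mesenchyme cells (median 1.01), against 37.3 to 3010 RPM in epiblast cells (median 1689), a difference of -9.16 ± 0.40. CRIPTO, the co-receptor of NODAL, had 0 to 84.8 RPM in mesenchyme cells, against 116 to 1287 RPM in epiblast cells (-7.51 ± 0.43), without overlap. IFITM1, an interferon-inducible membrane protein, had 0.759 to 527 RPM in mesenchyme cells (median 5.81), against 51.9 to 4472 RPM in epiblast cells (median 2233), a difference of -7.35 ± 0.66. Of 8 interferon-inducible genes, 4 were tested, 2 of them lower and none higher. ETV4, a transcription factor that FGF signals switch on, differed by -7.22 ± 0.52, ZNF208 by -7.21 ± 0.62, the glycine decarboxylase GLDC by -7.06 ± 0.50 and ZSCAN10, a zinc finger gene of embryonic stem cells, by -6.64 ± 0.53. SLC7A3, a transporter of cationic amino acids, and SH3BGRL2 differed by -6.63 ± 0.48 and -6.63 ± 0.50. The files do not tell how reads of near-identical copies were counted, so POU5F1, NANOG, KHDC3L, DPPA5, IFITM1 and ZNF208 are uncertain in that respect.

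Ligands and their receptors differed on both sides of the comparison, and are given by family. The counts of every gene list in this report are read against all tested genes, of which 12.3% were called higher and 12.7% lower. In the FGF and HGF list 14 of 19 genes were tested, with 3 higher and 4 lower and a median of -0.19. The ligand FGF7, which mesenchyme sends to epithelia, had 0 to 348 RPM in mesenchyme cells (median 96.6), against 0 to 0.503 RPM in epiblast cells (5.97 ± 0.62). FGF2 and FGF4, ligands of pluripotent cells, were lower in mesenchyme by -5.09 ± 0.52 and -3.68 ± 0.44, with FGF4 at 0 to 0.592 RPM in mesenchyme cells and 0 to 114 RPM in epiblast cells. The receptor FGFR1 had 38.7 to 312 RPM in mesenchyme cells (median 105), against 28.2 to 351 RPM in epiblast cells (median 170), and was not called (-0.57 ± 0.32, adjusted p = 0.244). FGFR2 was not called either (1.15 ± 0.48, adjusted p = 0.11), but it was with the day as a replicate block (adjusted p = 0.0198). MET, the receptor of HGF, was too low to be tested, at 0 to 35.8 RPM in mesenchyme cells and 0 to 82.5 RPM in epiblast cells, with a median of 0 in each.

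The list of PDGF, VEGF, IGF and chemokine genes had 19 of 25 members tested, with 9 higher and 5 lower and a median of 0.90. PDGFRA, the receptor of PDGF-A and a marker of mesoderm and primitive endoderm, had 112 to 689 RPM in mesenchyme cells (median 341), against 0 to 91.8 RPM in epiblast cells (7.85 ± 0.49), without overlap. Its ligand PDGFA had 0 to 8.92 RPM in mesenchyme cells (median 0.939), against 0 to 87.5 RPM in epiblast cells (median 27), a difference of -3.25 ± 0.49 (adjusted p = 0.00076). Receptor and ligand were thus high on opposite sides. Between the MS13 cells of E13 the PDGFA difference was 1.05, and it missed the threshold (adjusted p = 0.0639) with day and title code units. VEGFC, a ligand of lymphatic and vascular growth, had 4.74 to 410 RPM in mesenchyme cells, against 0 to 35.7 RPM in epiblast cells (5.14 ± 0.53). The VEGF receptor FLT1 differed by 4.29 ± 0.65, and the co-receptors NRP1 and NRP2 by 6.78 ± 0.57 and 5.58 ± 0.51, while the receptor KDR, which marks blood vessel progenitors, was lower by -1.66 ± 0.51 (adjusted p = 0.0367). KDR was not called without the E13 epiblast unit (adjusted p = 0.152) or without the E14 one (0.408), and stood at 2.96 between the MS13 cells of E14. TEK, the angiopoietin receptor, had 74.3 to 706 RPM in mesenchyme cells (median 274), against 0 to 7.88 RPM in epiblast cells (7.92 ± 0.51), without overlap. CXCL12, a chemokine that guides migrating cells, had 0 to 141 RPM in mesenchyme cells (median 1.22), against 0 to 575 RPM in epiblast cells (median 329), a difference of -6.48 ± 0.51. IGFBP3, which binds insulin-like growth factors, had 232 to 5099 RPM in mesenchyme cells (median 1801), against 0 to 185 RPM in epiblast cells (5.92 ± 0.47), without overlap.

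**Figure D4:**
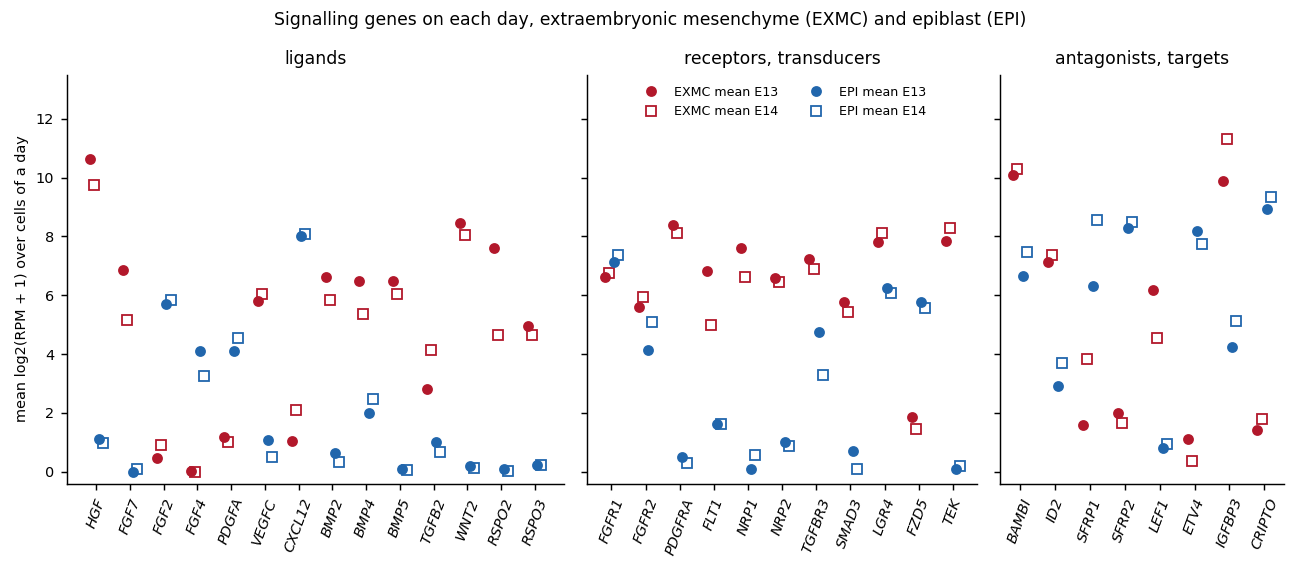
Mean log2(RPM + 1) over the cells of a day (vertical axis) for ligands, receptors and transducers, and antagonists and targets (horizontal axis), in extraembryonic mesenchyme (EXMC, red) and epiblast (EPI, blue), with filled circles for E13 and open squares for E14. HGF, FGF7, WNT2 and PDGFRA are high in mesenchyme on both days, FGF2, PDGFA, CXCL12, SFRP1 and SFRP2 are high in epiblast, and FGFR1 lies close together on the 2 sides.

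In the BMP list 16 of 24 genes were tested, with 6 higher, 1 lower and 9 not called, and a median of 0.85, and with the day as a replicate block 11 were called. BMP2 had 0 to 951 RPM in mesenchyme cells (median 121), against 0 to 6.18 RPM in epiblast cells without the 2 that stand apart (5.73 ± 0.54). BMP5 differed by 6.17 ± 0.52 and BMP4, which induces mesoderm and germ cells in the mouse, by 3.68 ± 0.57, with BMP4 at -0.05 between the MS13 cells of E14. Not every ligand was higher in mesenchyme. BMP7 reached 10 RPM or more in 3 of 30 mesenchyme cells, against 42 of 57 epiblast cells, and BMP6 in 1 of 30, against 1 of 57. BAMBI, a decoy receptor that dampens the pathway, had 405 to 2111 RPM in mesenchyme cells (median 1238), against 3.01 to 939 RPM in epiblast cells (median 152), a difference of 3.13 ± 0.32 (adjusted p = 7.08e-05). ID2, a target of the pathway, differed by 3.94 ± 0.45 with limma and was not called by edgeR (adjusted p = 0.0556). The other targets ID1, ID3 and ID4 were not called, nor were the receptors BMPR1A and ACVR1 or the transducers SMAD1, SMAD5 and SMAD9.

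The TGF-beta and NODAL list had 13 of 20 genes tested, with 4 higher and 3 lower and a median of 0.34. SMAD3, which carries the signal of this family, had 0 to 175 RPM in mesenchyme cells (median 72.3), against 0 to 60.2 RPM in epiblast cells (median 0), a difference of 5.18 ± 0.52 (adjusted p = 7.04e-05). The co-receptor TGFBR3 differed by 3.05 ± 0.52 and the ligand TGFB2 by 2.63 ± 0.52, and TGFB2 was not called without the E14 epiblast unit (adjusted p = 0.0501). NODAL, the ligand that patterns the epiblast, had 0 to 64.9 RPM in mesenchyme cells, against 0 to 310 RPM in epiblast cells without the 2 that stand apart. Its difference was -1.65 ± 0.42 (adjusted p = 0.0152), and it was not called without the E13 epiblast unit (adjusted p = 0.0515).

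In the WNT list 18 of 33 genes were tested, with 7 higher and 5 lower and a median of 0.86. The ligand WNT2 had 70.3 to 1021 RPM in mesenchyme cells (median 310), against 0 to 14 RPM in epiblast cells (8.08 ± 0.50), without overlap. RSPO2 and RSPO3, secreted enhancers of WNT signals, differed by 6.07 ± 0.82 and 4.58 ± 0.47. Their receptor LGR4 had 53.9 to 1058 RPM in mesenchyme cells (median 300), against 1.23 to 1164 RPM in epiblast cells (median 84.7), a difference of 1.80 ± 0.32, and it was not called with day and title code units (1.17, adjusted p = 0.0849). LEF1, a transcription factor of the pathway and one of its targets, differed by 4.49 ± 0.62. The secreted antagonists were split. FRZB reached 10 RPM or more in 17 of 30 mesenchyme cells, against 3 of 57 epiblast cells, and DKK1 in 12 of 30, against 1 of 57. DKK3 (6 of 30, against 17 of 57) and WIF1 (3 of 30, against 13 of 57) had larger shares in epiblast. SFRP2 had 0 to 56.9 RPM in mesenchyme cells (median 1.16), against 0.749 to 1102 RPM in epiblast cells (median 408), a difference of -6.56 ± 0.44. SFRP1 differed by -4.73 ± 0.82 (adjusted p = 0.00168) and the receptor FZD5 by -4.01 ± 0.52, though edgeR did not call SFRP1. In the retinoid list 8 of 16 genes were tested, with 2 higher and 1 lower and a median of 0.70. These are small counts beside the 12.3% of all tested genes called higher and the 12.7% called lower. ALDH1A2, which makes retinoic acid, had 0 to 1594 RPM in mesenchyme cells (median 61), against 0 to 1.47 RPM in epiblast cells (4.93 ± 0.53), and both E16 cells were at 0. The receptor RARG differed by -2.99 ± 0.52, but by 2.32 between the MS13 cells of E13, and it was called neither by edgeR (adjusted p = 0.127) nor with day and title code units (0.104).

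The de novo DNA methyltransferases DNMT3A and DNMT3B were lower. Of 9 genes listed that write, maintain or remove DNA methylation, 8 were tested, all through both sides, and 3 were lower and none higher, with a median of -1.48. With the day as a replicate block 6 were called, and with edgeR 2 were lower and 1 higher. DNMT3B, a de novo methyltransferase, had 8.27 to 216 RPM in mesenchyme cells (median 80.2), against 126 to 3880 RPM in epiblast cells (median 2388), a difference of -4.71 ± 0.30 (adjusted p = 6.03e-06). DNMT3A, the other de novo enzyme, had 0.385 to 135 RPM in mesenchyme cells (median 48.2), against 77.5 to 384 RPM in epiblast cells (median 231), a difference of -2.36 ± 0.35. Imprinted genes, expressed from the copy of 1 parent, were mixed, with 8 of 12 tested, 4 higher and 2 lower, and a median of 1.4. MEST had 104 to 1579 RPM in mesenchyme cells (median 614), against 8.53 to 220 RPM in epiblast cells (median 92.2), a difference of 2.76 ± 0.31. PLAGL1, a zinc finger factor, differed by 5.41 ± 0.53, NNAT by -3.05 ± 0.52 and SNRPN by -2.26 ± 0.29, with SNRPN at 2.03 between the MS13 cells of E13 and not called with day and title code units (-1.22, adjusted p = 0.157).

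Genes of energy metabolism and of the cell cycle are read against the 12.3% of all genes called higher and the 12.7% called lower. None of the 18 oxidative phosphorylation genes was called by limma or by edgeR, with a median of -0.14, the same as for all genes, and 4 were called with the day as a replicate block. Of 19 glycolysis genes, all tested, 1 was higher and 5 were lower, with a median of -0.35. Hexokinase 2 (HK2), the first enzyme of glycolysis, had 0 to 180 RPM in mesenchyme cells (median 25.4), against 40.8 to 960 RPM in epiblast cells (median 213), a difference of -3.68 ± 0.41 (adjusted p = 0.000125). The phosphofructokinase PFKP differed by -2.84 ± 0.52 and the aldolase ALDOC by -2.36 ± 0.53, and ALDOC stood at 0.40 between the MS13 cells of E13 and was called neither by edgeR nor with day and title code units (adjusted p = 0.161). Of 16 cell cycle genes tested, 2 were higher and 2 lower, shares like those of all genes, with a median of 0.06, and 10 were called with the day as a replicate block. With edgeR 3 of them were higher and none lower. The G1 kinase CDK6 had 28.9 to 685 RPM in mesenchyme cells (median 143), against 0 to 193 RPM in epiblast cells (median 38.1), a difference of 2.67 ± 0.41. Its cyclin CCND2 differed by -3.31 ± 0.74 and the topoisomerase TOP2A, active in dividing cells, by -1.65 ± 0.38. Neither CCND2 (adjusted p = 0.0773) nor TOP2A (0.0804) was called without the E14 epiblast unit, and edgeR called neither (adjusted p = 0.271 and 0.374).

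Immediate-early genes, which also respond to the dissociation of a tissue, were higher in mesenchyme. Of 11 stress genes in the table, 10 were tested, 6 of them higher and none lower, with a median of 3.66, and 5 of the 10 passed only through mesenchyme. FOS had 158 to 2023 RPM in E13 mesenchyme cells (median 678) and 21.8 to 1807 at E14 (median 407), against 0 to 148 RPM in epiblast cells (median 0), a difference of 7.77 ± 0.53 (adjusted p = 8.91e-06). JUNB differed by 4.43 ± 0.58, ATF3 by 4.31 ± 0.54, JUN by 4.01 ± 0.59 and FOSB by 3.85 ± 0.66. The summed list stood at 251 to 5297 RPM in mesenchyme cells (median 1223) and 170 to 1199 RPM in epiblast cells (median 384), and its part in the other differences was not tested. Of the marker genes of other cell types, HOXA10 differed by 6.61 ± 0.59, HOXA11, its neighbour in the cluster, by 4.45 ± 0.56, the membrane protease MME by 5.53 ± 0.78, and the Notch target HEY1 by 2.66 ± 0.45. The keratin KRT7 differed by -4.27 ± 0.50 but was not called by edgeR (adjusted p = 0.0939), and DPPA3, a protein of germ cells and the early embryo, differed by -4.78 ± 0.57.

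Inside the mesenchyme the 2 days differed in some genes. Among all tested genes 122 were higher at E14 than at E13 by at least 2 (1.25%) and 219 lower by at least 2 (2.25%), with a median of -0.21, beside -0.08 in epiblast. These values have no test, and the genes named were chosen after their values were seen. Day and title code are nearly the same split, so differences within MS13 are given beside them. The genes named here and in the next paragraph were picked among those that also differed by at least 2 with the same sign within MS13. That agreement was thus fixed by the choice and is no check. Within MS13 there were 8 mesenchyme cells at E13 and 2 at E14. DCN had a mean of 9.79 at E14, against 3.20 at E13 (log2 of RPM + 1), a difference of 6.59 and of 5.09 within MS13, and the E16 mean was 12.06. SERPINF1, a secreted serpin that blocks vessel growth, had 25.2 to 379 RPM in E14 mesenchyme cells (median 128) and 1163 and 476 in the E16 cells, against 0 to 80 RPM in E13 mesenchyme cells (median 0). The E14 minus E13 difference of SERPINF1 was 5.68 in mesenchyme, 4.04 within MS13 and -0.87 in epiblast. TGFBI differed by 3.82 (4.74 within MS13), and the complement inhibitor SERPING1 by 3.49 (2.51 within MS13). The surface protease FAP, a fibroblast marker, had 0 to 190 RPM in E14 mesenchyme cells and 0 to 39.5 RPM in E13 mesenchyme cells, and was at 0 in all 57 epiblast cells. Its E14 minus E13 difference was 3.06 in mesenchyme and 2.27 within MS13.

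B2M, the light chain of MHC class I, had 905 to 3713 RPM in E14 mesenchyme cells (median 1731), against 19 to 612 RPM in E13 mesenchyme cells (median 207), without overlap. In epiblast its E14 minus E13 difference was 2.33, beside 3.19 in mesenchyme and 2.83 within MS13, so it was higher at E14 on both sides. The splicing kinase CLK1 likewise stood at 3.44 in mesenchyme, 3.95 within MS13 and 3.05 in epiblast. Among genes lower at E14, TNNI3, the heart troponin I, had 0 to 14.9 RPM in E14 mesenchyme cells (median 0), against 8.04 to 131 RPM in E13 mesenchyme cells (median 44.9), a difference of -4.16 and of -4.91 within MS13. PSAT1, an enzyme of serine synthesis, had 0 to 98.7 RPM in E14 mesenchyme cells (median 3.78), against 18 to 327 RPM in E13 mesenchyme cells (median 117), a difference of -3.90 and of -4.12 within MS13. ASNS, which makes asparagine, had 0 to 54.5 RPM in E14 mesenchyme cells (median 0.493), against 3.85 to 135 RPM in E13 mesenchyme cells (median 64.6), a difference of -3.66 and of -2.62 within MS13. The replication helicase gene MCM5 had a median of 5.52 RPM in E14 mesenchyme cells, against 112 RPM in E13 mesenchyme cells, a difference of -3.79 and of -2.42 within MS13.

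**Figure D5:**
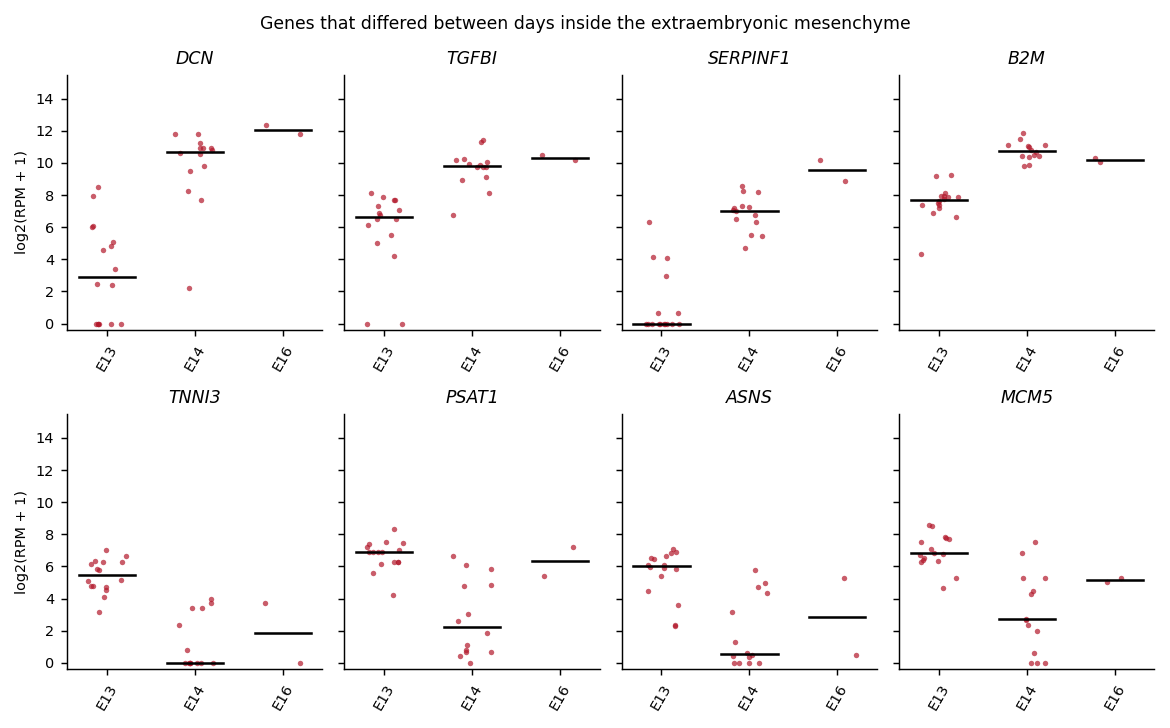
Levels of 8 genes in single extraembryonic mesenchyme cells at E13, E14 and E16 (horizontal axis), as log2(RPM + 1) on the vertical axis, with 1 point per cell and bars at the medians. DCN, TGFBI, SERPINF1 and B2M are higher at E14 than at E13, and TNNI3, PSAT1, ASNS and MCM5 are lower.

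The 2 E16 cells of the mesenchyme side carried its markers, with COL3A1, LUM and DCN above the medians of E14. HGF was at 632 and 131 RPM in these cells, under the E14 median of 1518. DLK1, an imprinted gene of growing mesenchyme, was at 1816 and 1911 RPM in the E16 cells, against at most 139 RPM in E14 mesenchyme cells. MEST was at 3102 and 2062 RPM there, against 104 to 1579 RPM at E14, and LAMA2 at 1364 and 897 RPM, against 1.44 to 608 RPM. Both E16 cells carry the code MS09.

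Within day and title code, in cells that also made the calls, 127 of the 140 called genes named here had the same sign in all 4 pairs. The 13 others were DCN, DPPA4, KRT8, KRT18, DSP, TAGLN, BMP4, TGFB2, PDGFA, RARG, SNRPN, ALDOC and KDR. Of these, 6 turned between the 8 mesenchyme and 2 epiblast cells of MS13 at E13, 1 of which goes against an epiblast label, and 6 between the 2 and 3 cells of MS13 at E14, DSP in both. With day and title code as units and code as a term, 2672 genes were called, 1861 of them also called in the comparison of days with the same sign.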

How the data were processed

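Per the file headers, the deposited table holds RPM per gene and cell on the build macFas5. The authors' tools, per the submitters' processing notes, included TopHat 1.4.1, Cufflinks 2.2.0 and cutadapt 1.3, with no role given. The sources used here give no filters, counting rule or molecular identifiers. Of 29095 rows, 298 hold no value and 28797 were used, and 3296 of 14758 LOC names were replaced by a symbol through their gene ID. Every column of the monkey table matched a sample.

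The sides, the gene lists, the markers and the alternatives were chosen with earlier results of these data known. The labels name no embryos, so each side and day made 1 unit, the mean of log2(RPM + 1) over its cells. Genes that reached a mean of 2 in at least 2 of the 4 units were tested with limma 3.58.1 (R 4.3.3, intensity trend), two-sided, with Benjamini-Hochberg adjustment over all 9724 genes and a threshold of 0.05. Of 9724 genes, 615 passed the filter only through mesenchyme and 721 only through epiblast. No cell was removed and no doublet caller was run, since the cells were picked singly, and the highest correlation of 2 cells was 0.7698. The fits were tested on simulated data.

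Genes named were the 12 largest rises and falls, all mesenchyme and epiblast markers, and up to 5 called members of each list with the largest difference, plus members needed for a role, and 1 gene that met the rule is not reported here. Of 507 listed genes, 495 matched the table and the others were not used here.

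The count of 1 read was taken as the step between low RPM values, and in every cell of both sides at least 99.7585% of the values (those over 0.01 RPM and below 500 steps) came within 0.1 of a whole read. On the recovered reads, summed per side and day, edgeR 4.0.16 was run with its quasi-likelihood test and called 1702 genes, and it was also run with the size factors of DESeq2 1.42.0.

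The day pairs the units by the labels, and the deviations of the sides from their means over days had a correlation of 0.30 across genes. Differences are given as log2, computed here from the deposited RPM.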

Additional observations from a re-analysis of the deposited data

Results flagged for a closer look

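The second of the 2 E16 cells on the mesenchyme side, which entered the fit with E16 as a further unit alone, held 4 of the 8 epiblast markers above every E13 and E14 mesenchyme cell. It had 1449 RPM of POU5F1, against at most 258 in the 30 cells of E13 and E14, and 237 RPM of NANOG, against at most 25.2. SOX2 was at 156 RPM in it, against at most 11.5, and SALL4 at 178 RPM, against at most 173. The other 4 lay under the highest mesenchyme cell, with DPPA4 at 68.3 RPM against 150, L1TD1 at 111 against 172, PRDM14 at 0.421 against 2.97 and GDF3 at 0 against 1.58. The same cell had 17936 RPM of COL3A1, and the cause was not tested.

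The 21 cells of E13 and E14 that belong to neither side held some mesenchyme transcripts. Above the highest of the 55 epiblast cells of the consecutive run stood 1 cell for COL3A1 (limit 144 RPM), 3 cells for COL6A3 (2.14 RPM), 4 cells for HGF (9.23 RPM), 2 cells for HAND2 (8.03 RPM), 1 cell for LUM (63.9 RPM) and 1 cell for DCN (26.5 RPM).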

How the results depend on the processing

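No named gene changed sign under any alternative run, and of the 142 named genes tested, 140 were called and 100 of these kept their side of the threshold in every alternative other than those that leave out a unit. The 2425 calls (1194 higher and 1231 lower in mesenchyme) became 1373 (621 and 752) with no filter on low values, 1524 (793 and 731) with a unit mean of at least 4, and 1136 (571 and 565) with the 2 E16 cells as a further unit. The replicate block (day) gave 3722 calls, 1708 higher and 2014 lower, with the E14 and E13 units of the sides paired by day, and it changed no call of a named gene other than that of FGFR2. As said above, the block fit took the spread of each gene from a trend over all genes. With edgeR, 703 genes were lower with its own scaling and 708 with DESeq2 size factors, and its scaling put the median difference of all genes at 0.01, against -0.14. Leaving out each unit in turn gave 1363 to 3313 calls, 665 to 1383 higher and 698 to 1953 lower, with the lone day of a side taken to vary like the other side. Of the genes past 2 on 1 day, a pseudocount of 0.1 gave 1223 lower at E13 and 1457 at E14, and a pseudocount of 10 gave 325 higher and 215 lower at E13 and 323 and 223 at E14. The E16 cells as a further unit ended 28 named calls, no filter on low values 15, edgeR 11 and title code units 9. Among the calls that the E16 cells ended were those of POU5F1 (adjusted p = 0.068), ZSCAN10 (0.059) and CDH2 (0.276). The counts per day and per list under the alternatives, and the values within MS13, were chosen after seeing the data.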
